A study of Mus musculus with 8 samples.

Results

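The leukocyte integrin genes Itga4, Itgb7, Itgb1, Itgal, Itgb2 and Itgax were followed in CD8 T cells of mouse spleen and liver. They were taken by name from a list, as 6 of the 31053 genes of the expression matrices, and UMIs of all 6 were found in every library. The cells came from wild-type (WT) mice and from EomesTG mice, both on the C57BL/6 background, and no treatment is named for either. EomesTG mice carry a transgene on both copies that makes T cells express Eomes, a T-box transcription factor, and the series set out to examine gene expression and clonal growth of such T cells in both organs. The promoter that drives the transgene and the age of the mice are not given in the sources used here. For each strain, cells of 3 mice were combined before the CD8 T cells of each organ were sorted, so each genotype and organ gave 1 droplet library of RNA and a matching library of T cell receptors (TCR), and no single mouse can be traced.

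An integrin is a pair of an alpha and a beta chain that lets a cell hold on to vessel walls, matrix and other cells. Itga4 encodes CD49d, which pairs with the chain of Itgb1 in a receptor for VCAM-1 and fibronectin, or with the chain of Itgb7 in the receptor for MAdCAM-1 of gut vessels. Itgal encodes CD11a, which pairs with CD18, the product of Itgb2, in LFA-1, the receptor for ICAM-1 that also holds resident T cells in liver sinusoids. Itgax encodes CD11c, which also pairs with CD18 and is best known from dendritic cells, although activated CD8 T cells can carry it.

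Gene positions refer to GRCm38 as annotated in GENCODE M21. The alpha chain gene that can pair with either of Itgb1 and Itgb7 is Itga4 (ENSMUSG00000027009) on chromosome 2 from 79255426 to 79333123, forward strand. The beta chain genes are Itgb7 (ENSMUSG00000001281) on chromosome 15 from 102215995 to 102231944, reverse strand, Itgb1 (ENSMUSG00000025809) on chromosome 8 from 128685654 to 128733200, forward strand, and Itgb2 (ENSMUSG00000000290) on chromosome 10 from 77530252 to 77565708, forward strand. The other alpha chain genes are Itgal (ENSMUSG00000030830) on chromosome 7 from 127296260 to 127335138, forward strand, and Itgax (ENSMUSG00000030789) on chromosome 7 from 128129547 to 128150657, forward strand. Cerkl, on the opposite strand, overlaps an exon of Itga4, and the sources used here do not say whether counting used strand, so reads of that stretch cannot be assigned to 1 of these genes with certainty. No other annotated gene overlaps a member.

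The bases before the start of Itga4, Itgb7 and Itgb1 are shown because the alpha chain and its alternative partners differed in EomesTG liver. The sequences are from RefSeq (build GRCm38.p6), which matched 4 of the 6 genes in the promoter table used here, and each is the 250 bases before the start, read 5′ to 3′ on the strand of the gene. Capitals mark matches on either strand to 4 motifs. GGTGTGA is the core of T-box sites. TGTGGT is the core of RUNX sites. CACCC is bound by KLF factors. GGGCGG is bound by SP factors.
Itga4, chr2:79255176-79255425, forward strand: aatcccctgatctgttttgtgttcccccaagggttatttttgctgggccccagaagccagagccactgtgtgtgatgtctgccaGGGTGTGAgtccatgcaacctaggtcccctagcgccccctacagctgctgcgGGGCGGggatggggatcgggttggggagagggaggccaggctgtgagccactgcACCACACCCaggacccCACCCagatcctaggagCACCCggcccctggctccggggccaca
Itgb7, chr15:102231936-102232185, reverse strand: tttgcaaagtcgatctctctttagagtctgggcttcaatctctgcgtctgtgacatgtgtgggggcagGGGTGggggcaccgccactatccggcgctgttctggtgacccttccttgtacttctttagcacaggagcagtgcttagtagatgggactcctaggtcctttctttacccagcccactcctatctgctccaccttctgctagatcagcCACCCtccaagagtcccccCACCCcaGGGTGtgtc
Itgb1, chr8:128685404-128685653, forward strand: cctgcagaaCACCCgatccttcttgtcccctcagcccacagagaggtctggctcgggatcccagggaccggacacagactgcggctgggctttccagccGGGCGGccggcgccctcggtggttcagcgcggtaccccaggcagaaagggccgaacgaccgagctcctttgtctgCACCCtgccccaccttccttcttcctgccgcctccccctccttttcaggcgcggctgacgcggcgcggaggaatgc
The Itga4 window held the T-box letters once, 165 bases before the start, where they overlapped a CACCC match on the opposite strand, and a TGTGGT match that overlapped another CACCC match, besides 2 further CACCC matches and 1 GGGCGG match. The Itgb7 window held only CACCC matches, 4 in number, and the Itgb1 window held CACCC and GGGCGG. Of 32851 promoter windows of the same length, 3.33% held GGTGTGA, 14% held TGTGGT, 52% held CACCC and 32.7% held GGGCGG. These matches describe the letters of the windows and no binding was measured.

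The T cells kept for analysis numbered 5333 and 3127 in spleen and liver of WT mice and 5726 and 4517 in spleen and liver of EomesTG mice, with 18940149 to 28754966 unique molecular identifiers (UMIs) per library and medians of 3918 to 5461 UMIs per cell. The sorted cells had the markers of CD8 T cells, with a Cd3e UMI in 97.3 to 98.3% and a Cd8a UMI in 82.2 to 90.6% of cells. Eomes, the targeted gene, was at 86.9 and 84.7 counts per 1000000 UMIs (CPM) in WT spleen and liver and at 134 and 182 in EomesTG spleen and liver, so that EomesTG was above WT in each organ. The libraries differed in makeup: cells led by immediate early genes such as Fos made up 38.8% of WT liver and 12.2% of EomesTG liver but under 1% of each spleen, and cells with exhaustion markers such as Pdcd1 and Lag3 made up 65.7% of EomesTG liver and under 1% of every other library. Between 81 and 124 cell barcodes per library also occurred in another library, and leaving them out changed no count of called members between whole libraries. The matched TCR libraries gave both chains for 2381 to 4157 cells per library, and the largest clone had 39 cells in WT spleen, 9 in EomesTG spleen, 114 in WT liver and 492 in EomesTG liver.

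Levels are CPM of UMIs summed over the cells of a group, with exact Poisson 95% intervals in parentheses, and ratios are log2 with exact conditional binomial 95% intervals; a value of a comparison that stands without a unit is such a log2 ratio. Both cover counting error only, and with 1 library per group no difference can be set against the spread between mice, so no p-value is given. A gene is called higher or lower where its ratio is at least 1.5-fold and the interval lies on that side of equality, and the share of all genes with at least 50 UMIs that meet this rule is given as background. Capture can differ between genes, so levels are compared between groups and not between genes, except for the 2 partners of Itga4.

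Between the spleens 5 of these genes differed by less than 1.5-fold, whereas EomesTG liver had more Itga4 and less Itgb7 RNA than WT liver. Itga4 was at 128 CPM (123 to 132) in the spleen of WT mice, 98.6 CPM (95 to 102) in that of EomesTG mice, 184 CPM (178 to 189.8) in the liver of WT mice and 301 CPM (294 to 309) in that of EomesTG mice. It was lowest in EomesTG spleen and highest in EomesTG liver, and none of these intervals overlapped. Itgb7 was at 246 CPM (240.1 to 252), 245 CPM (239.7 to 251), 259 CPM (252 to 266) and 111 CPM (106 to 115) in the same order of libraries. EomesTG liver stood apart from the other 3 libraries, which differed little. A summed level cannot tell fewer cells with a gene from less RNA per cell, and after thinning each cell to 2000 UMIs 15.1% of EomesTG liver cells had an Itgb7 UMI against 38.2% of WT liver cells. Itgb1 was at 133 CPM (128 to 137), 126 CPM (122 to 129.9), 235 CPM (228 to 242) and 169 CPM (163 to 175). Both livers were above both spleens for Itgb1, with WT liver the higher, and the intervals of the spleens overlapped.

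**Figure D1:**
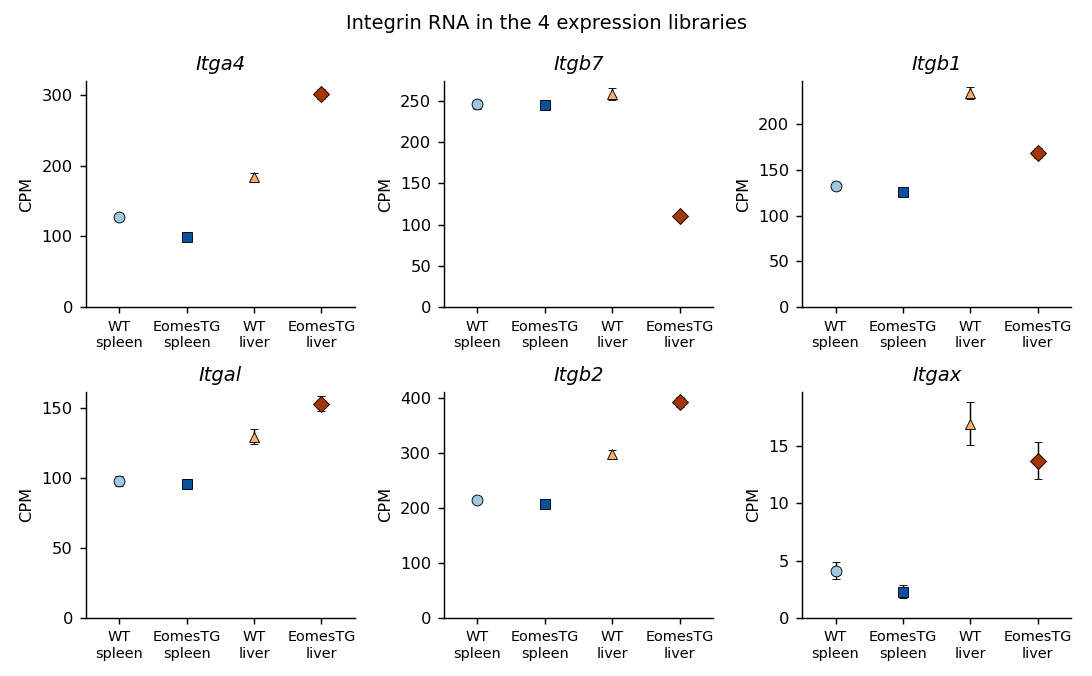
CPM of the 6 integrin genes in each of the 4 expression libraries (1 point per library, each panel with its own axis from 0, bars are exact Poisson 95% intervals for counting error). Itgb7 is at 111 CPM in EomesTG liver and between 245 and 259 in the other libraries, while Itga4 is highest in EomesTG liver.

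The chains of the LFA-1 and CD11c receptors were also more abundant in liver. Itgal was at 97.9 CPM in WT spleen, 95.7 in EomesTG spleen, 129.7 in WT liver and 153 in EomesTG liver. Itgb2 followed the same order, at 214, 208, 298 and 392 CPM, so that both chains of LFA-1 were highest in EomesTG liver, and for both the intervals of the 2 spleens overlapped. Itgax was sparse everywhere, at 4.07 CPM (3.37 to 4.88), 2.23 CPM (1.71 to 2.85), 16.9 CPM (15.1 to 18.9) and 13.7 CPM (12.1 to 15.4). Its intervals in the 2 livers overlapped and lay above both spleens.

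Between genotypes in spleen, 0 of the 6 genes were called higher, against a background of 2.68% of all genes, and 1 was called lower, against 4.93%. This was Itgax, at -0.87 (-1.33 to -0.42), which rests on 63 UMIs in EomesTG and 117 in WT and was no longer called when cells were thinned to equal depth. Itga4 was at -0.37 (-0.44 to -0.30), under the fold required. The other 4 genes lay between -0.08 and 0.00. In liver, 1 gene was called higher, Itga4 at 0.71 (0.65 to 0.78), where 13.7% of all genes were, and 1 was called lower, Itgb7 at -1.23 (-1.30 to -1.16), where 6.7% were. Itgb1 at -0.47 (-0.54 to -0.41), Itgb2 at 0.40 (0.35 to 0.45), Itgal at 0.24 (0.16 to 0.32) and Itgax at -0.31 (-0.54 to -0.07) stayed under the threshold. The median gene was shifted by 0.12 in this comparison and by 0.18 between EomesTG liver and spleen. Relative to that shift Itga4 was at 0.60 and Itgb1 at -0.59, which puts Itgb1 past the fold, and scaling without ribosomal protein, mitochondrial and receptor genes gave 0.56 for Itga4, which falls short of it. With each clone counted once Itga4 was at 0.35 and Itgb7 at -0.37, and neither was called. Neither was called without exhausted-like cells either. In EomesTG liver 92.3% of cells in clones of 20 or more were exhausted-like, so clone size and class go together. What part each has in the calls was not tested.

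Between organs, WT liver had 2 genes called higher than WT spleen and 0 called lower, against backgrounds of 11.4% and 3.38%. These were Itgb1 at 0.82 (0.76 to 0.89) and Itgax at 2.06 (1.75 to 2.38). Itga4, Itgal and Itgb2 lay between 0.41 and 0.52, and Itgb7 was at 0.07 (0.02 to 0.13). EomesTG liver had 4 genes called higher than EomesTG spleen and 1 called lower, against 23.6% and 9.69%. The genes called higher were Itga4 at 1.61 (1.55 to 1.68), Itgax at 2.62 (2.22 to 3.04), Itgb2 at 0.92 (0.87 to 0.97) and Itgal at 0.68 (0.60 to 0.75). Itgb7 was the gene called lower, at -1.15 (-1.22 to -1.08), and Itgb1 was at 0.43 (0.36 to 0.49). With each clone counted once Itgb7 was at -0.39, and without exhausted-like cells at -0.29, so 0 members were called lower either way. Itgal and Itgb2 also fell short of the fold in both, at 0.54 and 0.54 with each clone counted once, whereas Itgb1 passed it at 0.65. The comparisons between genotypes and between organs share the EomesTG liver library and are not independent of each other. Without the immediate early-like cells, WT liver had 5 genes called higher than WT spleen, and EomesTG liver had 0 called higher and 3 called lower than WT liver, so these counts moved with that class. What part the class has in them was not tested.

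Cells were next compared within classes. Clusters were built without any integrin gene and without Eomes, and were named from marker lists where the markers allowed. The naive-like class joins clusters 1, 2, 5 and 6, of which cluster 1 is led by interferon-induced GTPase genes and cluster 5 by Sox4 and Myb, and neither has a naive marker among its 10 leading genes. In naive-like cells, whose natural counterparts circulate between blood and lymphoid organs, Itgb7 had more UMIs than Itgb1 in all 4 libraries, and 0 of the members with at least 50 UMIs over both sides were called in the 4 comparisons. Itgax, with 21 and 9 UMIs in WT and EomesTG spleen, was under that minimum, at 1.65 CPM (1.02 to 2.52) and 0.507 CPM (0.232 to 0.962), intervals that did not overlap. Itga4 was at 109.9 CPM in WT spleen, 83.5 in EomesTG spleen, 90.5 in WT liver and 92.7 in EomesTG liver. Itgb7 was at 269.6, 256, 277 and 268 CPM, and Itgb1 at 67.7, 74, 88.3 and 61.8. Of all genes, 3.03 and 3.36% were called higher and lower in EomesTG than WT spleen, 2.36 and 9.38% in EomesTG than WT liver, 4.6 and 3.6% in liver than spleen of WT, and 1.73 and 3.85% in liver than spleen of EomesTG. Cluster 1 holds 1924 of the EomesTG but 99 of the WT spleen cells of this class, so the spleen comparison sets partly different clusters against each other. After thinning, 0.122% of naive-like cells of WT spleen had an Itgax UMI, and shares in the other 3 libraries were lower.

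**Figure D2:**
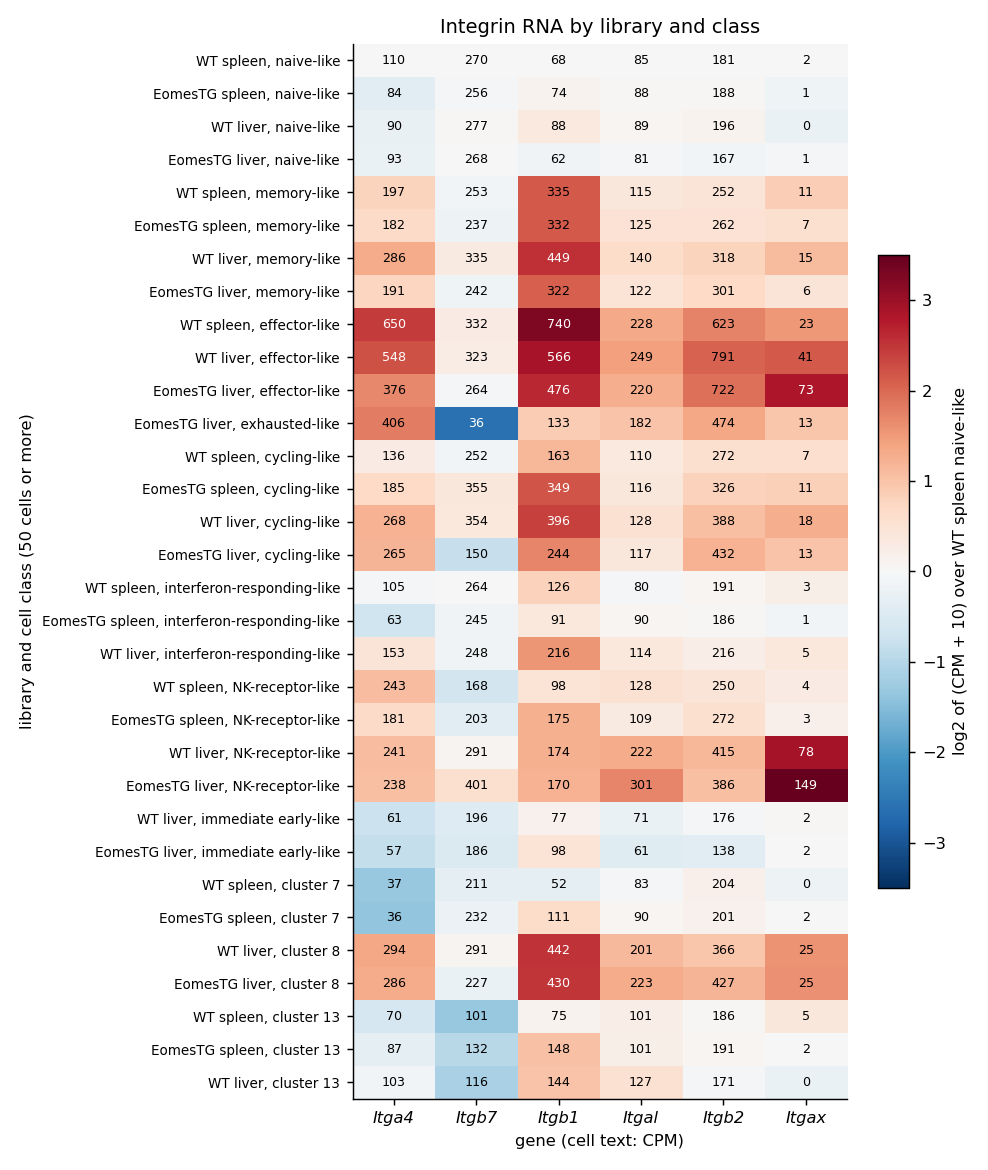
CPM of the 6 genes (numbers in the cells) in each library and class with at least 50 cells, coloured by the log2 of CPM + 10 relative to naive-like cells of WT spleen. Itgb7 is at 35.7 CPM in exhausted-like cells of EomesTG liver and at 101 or more in every other row, whereas Itga4, Itgb1 and Itgb2 are high in effector-like cells.

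Against naive-like cells, memory-like cells stood out by Itgb1 and effector-like cells by Itga4, Itgb1, Itgal and Itgb2, whereas Itgb7 stayed near its naive-like level in both. Memory-like cells (cluster 4), which express Il18r1 and Gzmm, had Itgb1 at 335, 332, 449 and 322 CPM in the 4 libraries. Against naive-like cells of the same library this was 2.31 (2.19 to 2.43) in WT spleen, where 4.83% of genes were called higher, and 2.16 (2.05 to 2.28) in EomesTG spleen, where 5.32% were. Itgb1 was among the 10 leading genes of cluster 4 although it was kept out of the clustering. A high Itgb1 level was not particular to memory-like cells. Cluster 8, liver cells described below, had Itgb1 at 442 CPM in WT and 430 CPM in EomesTG liver. Effector-like cells, with S1pr5, Cx3cr1 and Klrg1, had the highest levels of Itga4, Itgb1 and Itgb2 of the classes of their library, except that Itga4 was higher in the exhausted-like cells of EomesTG liver. In WT liver they had 548 CPM (499 to 600.4) of Itga4, 566 CPM (516 to 619) of Itgb1 and 791 CPM (732 to 853) of Itgb2. Against naive-like cells of WT liver 4 members were called higher and 0 lower, where 23.2% and 7.91% of genes were, with Itgb1 at 2.68 (2.34 to 3.03) and Itga4 at 2.60 (2.26 to 2.95). In the 79 such cells of WT spleen Itga4 was at 649.9 and Itgb1 at 740.3 CPM, and in the 51 of EomesTG liver at 376 and 476. Itgb7 in effector-like cells was at 332, 323 and 264 CPM in these libraries, and it was not called against naive-like cells in any of them. Itgal in effector-like cells was at 228 CPM in WT spleen, 249 in WT liver and 220 in EomesTG liver. NK-receptor-like cells had Itgal at 222 CPM in WT liver, with overlapping intervals, and at 301 in EomesTG liver. 0 members were called between genotypes in effector-like cells of liver, where 2.98% of genes were called higher and 3.65% lower.

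Itga4 was low in cluster 7, spleen cells with Ly6c2 and Plac8 among their leading genes, which kept their number because they could not be named from the markers. It was at 37.5 CPM (32 to 43.6) in WT and 36.1 CPM (29.8 to 43.3) in EomesTG spleen, below every other class of these libraries. Against naive-like cells this was -1.55 (-1.79 to -1.32) and -1.21 (-1.5 to -0.94), where 5.34% and 3.88% of genes were called lower. In immediate early-like cells Itga4 was at 61.4 CPM in WT liver and 57.4 in EomesTG liver, and the ratio to naive-like cells was past the fold in EomesTG liver only, at -0.69 (-1.07 to -0.31) with a background of 3.89% lower. Cluster 13, led by Lad1, Xcl1 and Egr2, had the lowest Itgb7 outside EomesTG liver. It was at 101, 132 and 116 CPM in WT spleen, EomesTG spleen and WT liver, and against naive-like cells the ratios were -1.41 (-1.70 to -1.14) in WT and -0.95 (-1.19 to -0.72) in EomesTG spleen, with 14.9% and 9.35% of genes called lower.

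Interferon-responding cells, led by Ifit3, Ifit1 and Rsad2, had Itga4 at 105 CPM (88.8 to 123) in WT and 63.3 CPM (48.9 to 80.5) in EomesTG spleen. The ratio of -0.73 (-1.17 to -0.30) made Itga4 the only member called between genotypes in these spleen cells, where 2.92% of genes were called lower, and it was not called at the coarser cluster resolution of 0.6. In naive-like spleen cells the ratio was -0.40 (-0.50 to -0.29), of the same sign and under the fold required.

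Exhausted-like cells of EomesTG liver had little Itgb7 RNA. The class joins clusters 0 and 9 and held 2967 cells of EomesTG liver but 6, 34 and 25 of WT spleen, EomesTG spleen and WT liver, too few for a level, so class and library cannot be told apart here. Itgb7 was at 35.7 CPM (32.2 to 39.3) in these cells, against 268 CPM (235 to 303) in the naive-like cells of the same library, a ratio of -2.91 (-3.14 to -2.67), where 6.64% of all genes were called lower. After thinning, 5.27% of exhausted-like and 37.3% of naive-like cells had an Itgb7 UMI. The other 5 genes were called higher than in naive-like cells, as were 32.6% of all genes. Itga4 was at 406 CPM (2.13), Itgb2 at 474 CPM (1.5), Itgal at 182 (1.17) and Itgb1 at 133 (1.11). For Itgb1 this was above the naive-like level but below the memory-like level of 322 CPM in the same library. The median ratio of all genes tested was 0.48 between exhausted-like and naive-like cells. Scaling without ribosomal protein, mitochondrial and receptor genes shifts each ratio by -0.51. Relative to either shift Itgal and Itgb1 lie closer to the fold required.

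Both clusters of the class had low Itgb7. It was at 31.5 CPM (27.9 to 35.4) in the 2360 cells of cluster 0, led by Cd200r2, Gzma and Pdcd1, and at 50.8 CPM (42.3 to 60.6) in the 607 cells of cluster 9, led by Prss2 and Coch. Cluster 9 had more Itgb2, at 577 against 446 CPM, and more Itgax, at 29.9 against 8.18 CPM, with no overlap of the intervals. Itga4 was at 380.2 in cluster 9 and 414 CPM in cluster 0, where the intervals overlapped.

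Cells of the other libraries that expressed the exhaustion marker Pdcd1 had Itgb7 at or above the level of the whole library. Cells with at least 1 Pdcd1 UMI numbered 148 in WT spleen, 165 in EomesTG spleen, 253 in WT liver and 2790 in EomesTG liver. Itgb7 in them was at 255 CPM (226 to 286), 259 CPM (228 to 293), 309 CPM (286 to 333) and 54.1 CPM (50.1 to 58.3), so EomesTG liver was low and the other 3 libraries were not. Itgb1 was also lowest there, at 372, 439.7, 399.7 and 156 CPM. Between genotypes in liver Itgb7 was at -2.52 (-2.67 to -2.36) and Itgb1 at -1.36 (-1.48 to -1.24), 2 genes called lower where 10.0% of all genes were and 0 higher where 15.4% were, and Itga4 was at 0.24 (0.13 to 0.36). Pdcd1 itself was unequal in these cells, at 1.74 UMIs per cell in WT liver and 3.39 in EomesTG liver, and 7.11% and 89.4% of them were exhausted-like, so cells of unequal Pdcd1 level were set against each other.

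Outside the exhausted-like class the livers differed in cycling-like cells. With exhausted-like cells left out of all libraries, EomesTG against WT liver gave -0.060 for Itga4 and -0.36 for Itgb7, and 0 members were called either way. Among the 7 classes compared between the livers, members were called lower in EomesTG in cycling-like cells, which were Itgb7 at 149.5 against 354 CPM (-1.24, interval -1.42 to -1.07) and Itgb1 at 244 against 396 CPM (-0.70, interval -0.84 to -0.55), where 5.87% of genes were called lower and 10.2% higher. Of these cycling-like cells 77.7% in EomesTG and 29.3% in WT had a Pdcd1 UMI. In cluster 8, liver cells led by Asb2, Rora and P2rx7, Itgb7 was at 227 CPM in EomesTG and 291 in WT (-0.36, interval -0.54 to -0.18), and 0 members were called, with a background of 3.23% higher and 2.37% lower.

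In spleen, Itgb1 was the member that most often differed between genotypes within classes. It was called higher in EomesTG in cluster 7 at 1.10 (0.85 to 1.34), in cycling-like cells at 1.09 (0.84 to 1.35), in cluster 13 at 0.99 (0.60 to 1.38) and in NK-receptor-like cells at 0.83 (0.36 to 1.29). In these 4 comparisons 2.23, 5.22, 6.72 and 2.24% of all genes were called higher. In cluster 7 the levels were 111 CPM in EomesTG and 52 in WT, and in cluster 13 they were 148 and 74.8. Memory-like spleen cells were at -0.01 with 0 members called (background 2.64% higher and 1.78% lower), and the whole spleens at -0.08 (-0.14 to -0.01). Memory-like cells held the most Itgb1 UMIs of the classes in WT spleen, at 1756. In EomesTG spleen they held 1190 and naive-like cells 1315. Memory-like cells made up 17.8% of WT and 11.3% of EomesTG spleen.

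Because CD49d can pair with either beta chain, the Itgb1 share of the UMIs of Itgb1 and Itgb7 was taken as a measure of their balance in RNA, with exact binomial intervals. In spleen it was 35% (34.1 to 35.9) for WT and 33.9% (33 to 34.8) for EomesTG mice, and in liver 47.5% (46.5 to 48.6) for WT and 60.4% (59.2 to 61.7) for EomesTG mice. The share was thus similar in the spleens and highest in EomesTG liver. In naive-like cells it was 18.8% to 24.2% over the 4 libraries, and in memory-like cells 56.9% to 58.4%. Exhausted-like cells of EomesTG liver had 78.9% (77 to 80.7), above the 69.1% (63.7 to 74.1) of effector-like cells of WT spleen, the class with the next highest share. In effector-like cells Itgb1 was high and Itgb7 was near its naive-like level, whereas in exhausted-like cells Itgb1 was below its memory-like level and Itgb7 far below its naive-like level. RNA says nothing of which pairs reach the cell surface.

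**Figure D3:**
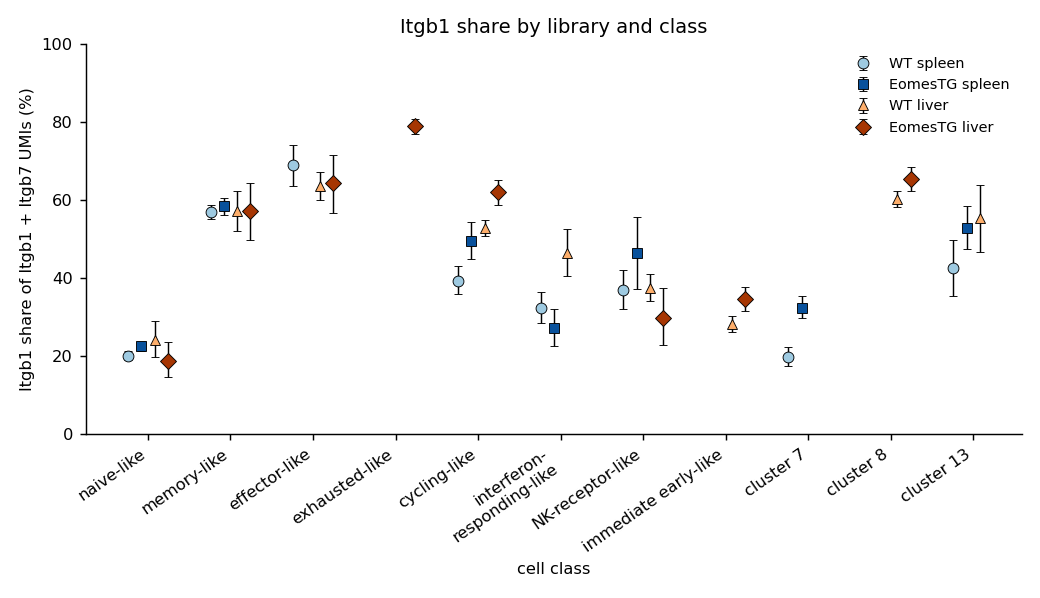
Itgb1 share of the summed Itgb1 and Itgb7 UMIs in percent, by class and library (classes of at least 50 cells, bars are exact binomial 95% intervals). Memory-like cells of all libraries lie between 56.9% and 58.4%, and exhausted-like cells of EomesTG liver reach 78.9%.

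Expanded clones had more Itga4 and Itgb2 RNA in every library, and more Itgb1 in all but EomesTG liver, where Itgb7 was lower in them. A clone is the set of cells of a library with identical productive TRA and TRB CDR3 sequences, and clones of at least 2 cells were compared with cells whose clone was seen once. In WT spleen all 6 genes were called higher in the 140 cells of expanded clones, led by Itgb1 at 2.44 (2.28 to 2.59), Itgax at 2.29 (1.18 to 3.25) and Itga4 at 2.15 (1.98 to 2.33), where 12.5% of all genes were. Of these cells 39 belonged to 1 clone, mostly effector-like, which gave 172 Itgb1 and 6 Itgax UMIs. The 90 cells in clones of 2 to 4 gave 147 Itgb1 UMIs. Of 3 WT spleen clones of at least 5 cells, 2 had no Itgax UMI, so the Itgax ratio rests on few UMIs. In EomesTG spleen 5 of the 6 genes were called higher in 119 such cells, against 11%, with Itga4 at 2.24 (2.01 to 2.46) and Itgb1 at 2.14 (1.94 to 2.34), and Itgb7 was at 0.33 (0.06 to 0.58). In WT liver all 6 were called higher in 440 cells, against 18.8%, with Itga4 at 1.79 (1.68 to 1.90), Itgb1 at 1.53 (1.44 to 1.63) and Itgb7 at 0.60 (0.49 to 0.70). In EomesTG liver, with 2351 cells in expanded clones, 2 were called higher, against 28.7%, which were Itga4 at 1.31 (1.20 to 1.42) and Itgb2 at 0.93 (0.84 to 1.01). There 1 was called lower, against 8.08%, Itgb7 at -2.16 (-2.31 to -2.02), and Itgb1 was at -0.26 (-0.38 to -0.15). Outside the naive-like class the ratios had the same signs in all 4 libraries, except that Itgax in EomesTG liver went from 0.11 to -0.09, neither past the fold. The median gene was shifted by 0.24 to 0.31 towards expanded clones in these 4 comparisons. Relative to that shift, 4 of the 6 were called in each of WT spleen and WT liver, where Itgb7 came to 0.29 in both and Itgal to 0.55 and 0.45. In EomesTG liver, scaling without ribosomal protein, mitochondrial and receptor genes gave 0.57 for Itgb2, under the fold, and -0.62 for Itgb1, past it, so there 1 was called higher and 2 lower.

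By clone size, Itgb7 in EomesTG liver was at 227 CPM (214 to 240.3) in clones seen once, 137 CPM (116 to 161) in clones of 2 to 4 cells, 66.9 CPM (54.3 to 81.5) in clones of 5 to 19 and 36.3 CPM (32.2 to 40.7) in clones of 20 or more. Each step was lower than the one before, with no overlap of intervals. In WT liver the same bins had 238 CPM (229 to 246), 331 CPM (292 to 373), 302 CPM (262 to 347) and 412 CPM (376 to 451). The largest of the 3 WT clones of 20 or more cells, with 114 cells, gave 413 of the 479 Itgb7 UMIs of its bin and was at 446 CPM, and the other 2, at 284 and 277 CPM, were below the smaller bins of expanded clones. The share of exhausted-like cells went with clone size in EomesTG liver, from 10.3% of cells in clones seen once to 58.2, 82.4 and 92.3% in the larger bins. Itga4 was at 149, 299, 348 and 384 CPM in these bins of EomesTG liver, and Itgb1 at 196, 279, 210.2 and 139 CPM. Itga4 was thus highest in the largest clones, while Itgb1 was highest in clones of 2 to 4 cells and lowest in the largest.

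**Figure D4:**
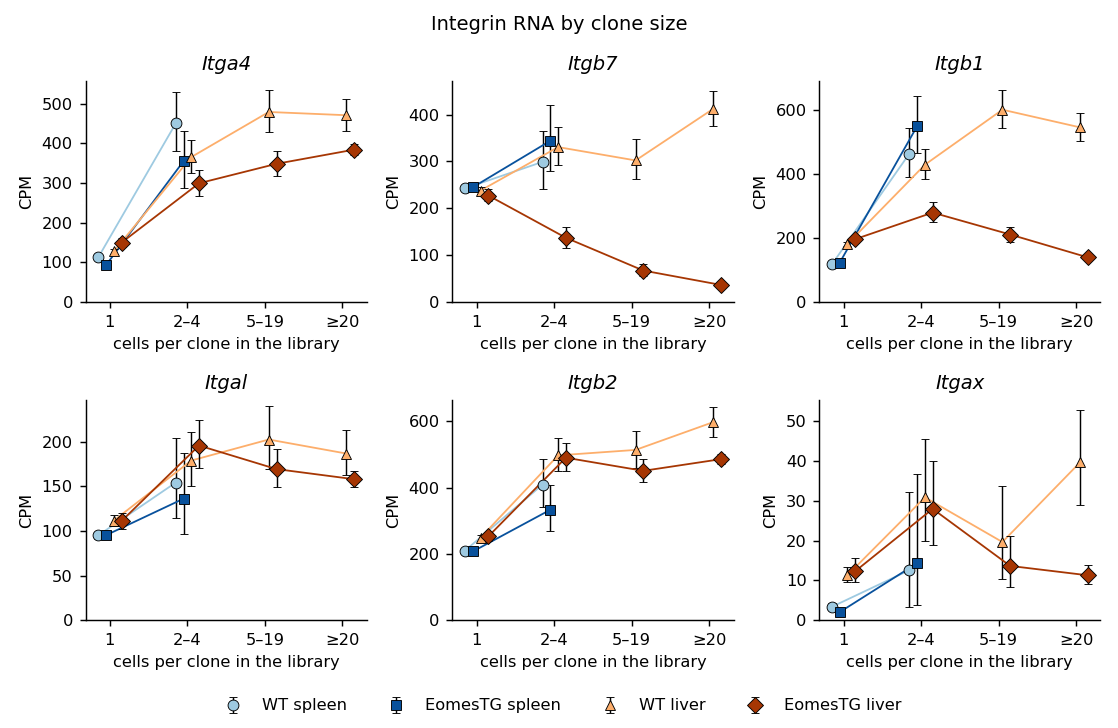
CPM of the 6 genes by the number of cells of a clone in its library (points are bins with at least 50 cells, 1 colour and symbol per library, bars are exact Poisson 95% intervals). In EomesTG liver Itgb7 goes from 227 CPM in clones seen once to 36.3 in clones of 20 or more cells, and in WT liver from 238 to 412, a bin of 3 clones in which 1 clone gives 413 of 479 UMIs.

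Between the genotypes, members were called in expanded liver clones and not in clones seen once, a difference that was not itself tested. Among liver cells whose clone was seen once, 902 in EomesTG and 1941 in WT, all 6 genes lay between -0.07 and 0.23, and 0 were called, where 2.7% of all genes were called higher and 3.41% lower. Among cells of expanded liver clones 3 members were called lower in EomesTG, against 9.01% of all genes, and 0 higher, against 12.3%. These were Itgb7 at -2.83 (-2.98 to -2.67), Itgb1 at -1.68 (-1.78 to -1.58) and Itgax at -1.26 (-1.66 to -0.85), while Itga4 was at -0.25 (-0.34 to -0.15). Of the WT cells 114 belonged to 1 clone. It gave 592 of the 633 Itgb1 and 413 of the 479 Itgb7 UMIs of WT clones of 20 or more cells. Over clones of at least 5 cells, WT and EomesTG liver had median Itgb7 of 281 and 35.8 CPM and median Itgb1 of 534 and 140. Itgax had a median of 0 in both, with 13 of 20 WT and 31 of 53 EomesTG clones at 0. In spleen 0 members were called between genotypes in expanded clones, where 3.68% of genes were called higher and 4.68% lower.

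Within exhausted-like cells of EomesTG liver, Itgb7 was lower still in the pooled cells of large clones. It was at 29.1 CPM in the 1663 cells of clones of 20 or more and at 49.9 in the 221 cells of clones under 5, a ratio of -0.78 (-1.25 to -0.28), the only member called, where 2.62% of genes were called lower. Itgal was at -0.49 (-0.70 to -0.27), Itga4 at 0.32 (0.15 to 0.49) and Itgb2 at 0.00 (-0.14 to 0.15). The Itgb7 ratio pools unlike clones. The largest, of 492 cells, was at 16.7 CPM over all its cells. Over all their cells, clones of 132, 55, 55, 29, 28 and 22 cells were at 58.0, 62.5, 78.0, 72.8, 189.7 and 108.6 CPM, above the 49.9 of small clones. The rest of the 19 clones of 20 or more cells were below it. The 49.9 is of exhausted-like cells only, whereas the clone values include cells of other classes, so they are not fully alike.

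Itgb7 was low in many clones. EomesTG liver had 19 clones of at least 20 cells, each with 78.6% or more of its cells in the exhausted-like class. Over these clones Itgb7 ranged from 0 to 189.7 CPM with a median of 35.8. The 492-cell clone was at 16.7 CPM, the 430-cell clone at 35.8 and the 147-cell clone at 44.9. The highest value, 189.7 CPM (124 to 278), belonged to a clone of 28 cells. The 3 such clones of WT liver were at 446, 284 and 277 CPM and the 1 of WT spleen at 387, all above every EomesTG liver clone of this size. The 2 lower WT liver clones had intervals of 190 to 408 and 195 to 382, which overlapped that of the 28-cell clone. Itga4 did not separate the genotypes, at 270.0 to 534 CPM in the 19 EomesTG clones (median 391) and 323 to 488 in the 3 of WT liver. Itgb1 was at 93.6 to 205 CPM in the EomesTG clones, and at 639, 127 and 209.7 in those of WT liver. The 2 lower WT clones were made of NK-receptor-like cells, and cycling-like cells were the most frequent class of the largest WT clone, with 40.4% of it. From 5 cells up, EomesTG liver had 53 clones with a median Itgb7 of 35.8 CPM, of which 42 were under 100 CPM and 4 over 200, and WT liver had 20 with a median of 281, of which 1 was under 100 and 16 over 200. Clones of 1 mouse are not independent samples, and which mouse a clone came from is not known.

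**Figure D5:**
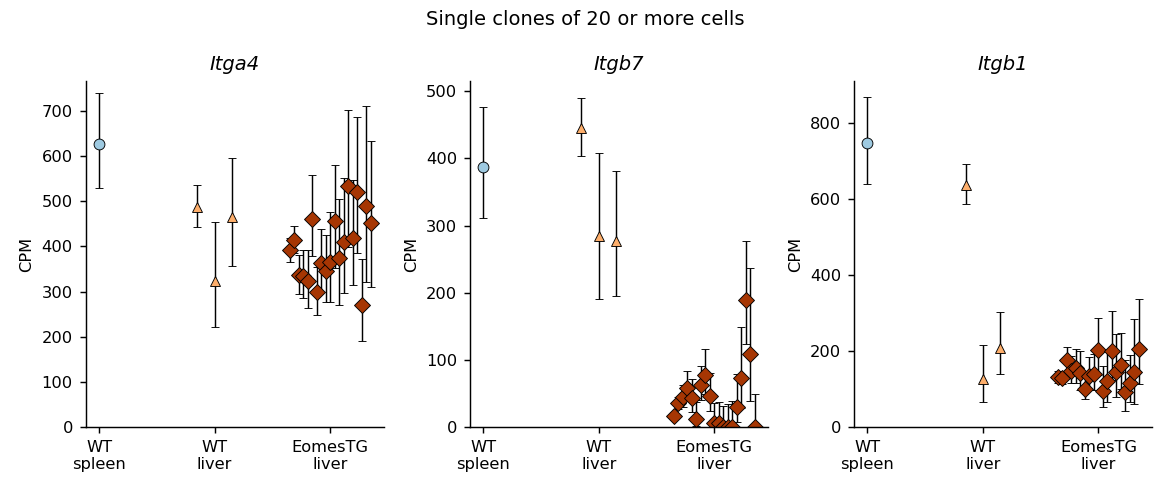
CPM of Itga4, Itgb7 and Itgb1 in single clones of at least 20 cells (1 point per clone, ordered by size from left to right within a library, bars are exact Poisson 95% intervals). The 19 EomesTG liver clones have 0 to 189.7 CPM of Itgb7 and the 4 WT clones 277 to 446, while the ranges of Itga4 overlap.

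The same clones were also compared between organs, 60 of WT with 283 liver and 128 spleen cells and 30 of EomesTG with 401 liver and 68 spleen cells. In WT clones 0 members were called in either direction, where 7.69% of all genes were called higher in liver and 3% lower. Itgb7 was at 388 CPM in liver and 386 in spleen (0.01, interval -0.20 to 0.22), Itga4 at 451 and 623 (-0.47, interval -0.64 to -0.29) and Itgb1 at 560.4 and 761 (-0.44, interval -0.60 to -0.28). With each clone counted once, Itgax at 0.63 passed the fold upward and Itga4 at -0.69 downward, and without the largest WT clone Itgb1 did so downward at -0.67. In EomesTG clones 3 members were called lower in liver, where 6.27% of genes were, and 0 higher, where 6.75% were. Itgb7 was at 80.8 CPM in liver and 270.2 in spleen (-1.74, interval -2.16 to -1.31), Itgb1 at 219 and 499.6 (-1.19, interval -1.48 to -0.90) and Itga4 at 355 and 659 (-0.89, interval -1.14 to -0.64). For Itga4 this is the reverse of the whole EomesTG libraries, where liver was the higher. In these EomesTG clones 80.8% of liver and 32.4% of spleen cells were exhausted-like. With each clone counted once the EomesTG ratios were -0.32 for Itgb7, -0.61 for Itgb1 and -0.52 for Itga4, of which only Itgb1 was past the fold. With every cell or every clone counted equally a member was also called higher in liver. The calls of Itgb7 and Itga4 thus depend on the weight given to clones. Without the largest shared clone of either organ Itgb7 was at -1.41, past the fold.

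Itgax, the marker of dendritic cells, was highest in liver T cells with NK receptors and in effector-like cells. In NK-receptor-like cells it was at 78.3 CPM (65.5 to 92.8) in WT liver and 149 CPM (107 to 201) in EomesTG liver, and at 4.15 CPM in WT spleen and 3.12 in EomesTG spleen. The liver cells were high and the spleen cells near the library average, and they came mostly from different clusters. Cluster 12, led by Tyrobp and Ncr1, held 370 of the 397 such cells of WT liver and 86 of the 90 of EomesTG liver, while cluster 15, led by Klra1 and Klra6, held 281 of the 285 of WT spleen and 63 of the 65 of EomesTG spleen. After thinning, 21.5% of these cells in EomesTG liver had an Itgax UMI. The EomesTG to WT ratio in liver was 0.93 (0.39 to 1.44), the only member called there, where 3.63% of genes were called higher. In effector-like cells Itgax was at 23.4, 41.4 and 73.5 CPM in WT spleen, WT liver and EomesTG liver. Markers of dendritic cells were scarce, with Flt3 and Clec9a at 0 in the T cells of all 4 libraries, and 3 to 5 of 6 listed markers at 0 per library and a summed level of 0.487 to 3.18 CPM. In the NK-receptor-like cells of WT and EomesTG liver 5 of the 6 were at 0, and H2-Aa alone gave 4.75 and 24.8 CPM. In cells without a UMI of any B cell, plasma cell, myeloid or dendritic marker Itgax was at 16.7 CPM in WT liver and 11.8 in EomesTG liver, close to the 16.9 and 13.7 of all T cells. These values are of whole libraries. In NK-receptor-like cells of WT and EomesTG liver myeloid markers summed to 136 and 156 CPM, against 96.1 and 121 over all T cells. Plasma cell markers were at 55.8 and 70.9, against 31.2 and 45.4. Such sums can come from 1 gene. In NK-receptor-like cells of WT and EomesTG spleen Cst3 alone gave the myeloid sums of 82.9 and 93.7 CPM. Xbp1 alone gave the plasma cell sums of 26.3 and 6.25 CPM there. The part of these markers in the Itgax level of this class was not tested. Markers of gamma-delta T cells had a summed level of 214 and 213 CPM in the NK-receptor-like cells of WT and EomesTG liver, against 30.1 and 102 over all T cells, and 156 in exhausted-like cells, with 1 of 4 markers, Sox13, at 0 in each of these classes, and their part in the Itgax and Itgb7 levels was not tested.

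Over the 32 combinations of library and class with at least 50 cells, Itgb7 was the member whose pattern was least like that of the others. The correlation of log2 of CPM + 10 was 0.89 between Itga4 and Itgb2, 0.89 between Itgal and Itgax, 0.86 between Itgal and Itgb2 and 0.81 between Itga4 and Itgb1. With Itgb7 it was 0.13 for Itga4, 0.35 for Itgb1 and 0.17 for Itgb2. Combinations of a library share its depth and preparation, so these values describe the data and carry no test. Of 9274 other genes with at least 200 UMIs, the closest in pattern to Itga4 were Prr13 (r = 0.95), Smap1 (0.93) and Arpc1b (0.89), and to Itgb2 Arpc1b (0.97), Cd48 (0.95) and Cap1 (0.94). Closest to Itgb1 were Ttc39c (0.88), Ccr2 (0.87) and S100a10 (0.86), to Itgal Ptprc (0.90), Dock5 (0.90) and Unc93b1 (0.90), and to Itgax Klrb1f (0.91), Diaph1 (0.91) and Dtnbp1 (0.89). The closest to Itgb7 were less close, Tagln2 (0.77), Cdkn2d (0.74) and Epsti1 (0.73).

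Other integrin subunits also differed by organ and genotype. Of 20 further subunit genes, 7 or 8 had enough UMIs in each comparison of whole libraries. In WT liver 4 of 7 were called higher than in WT spleen and 0 lower, against 11.4% and 3.38% of all genes, with Itga1, the collagen-binding chain CD49a of resident T cells, at 25.4 against 1.39 CPM (4.19), Itgad, another partner of CD18, at 2.63, Itgav at 0.90 and Itga2 at 1.04. In EomesTG liver 5 of 8 were called higher than in EomesTG spleen and 1 lower, against 23.6% and 9.69%, with Itga1 at 21.4 against 0.46 CPM (5.54), Itgav at 76.3 against 12.8 CPM (2.57), Itgad at 2.49 and Itgb8, with 2 UMIs in spleen, at 5.32 (3.40 to 8.4). Between the livers 2 of 8 were called higher in EomesTG, where 13.7% of all genes were, Itgav at 76.3 against 23.4 CPM (1.70) and Itgb8, which pairs with it in a receptor that activates TGF-beta, at 2.83 against 0.106 CPM, with 2 UMIs in WT liver and a ratio of 4.74 (2.82 to 7.82). There 2 were called lower, where 6.7% were, Itgae, the CD103 chain that pairs with Itgb7 to bind E-cadherin, at 4.58 against 18.3 CPM (-2.00), and Itgb3 at -1.15. Between the spleens 4 of 8 were called lower in EomesTG and 0 higher, against 4.93% and 2.68%, with Itgae at 3.32 against 16 CPM (-2.27), Itga1 at -1.60, Itga2 at -0.85 and Itga6 at -0.65. Itgae was thus called lower in EomesTG in both organs, and Itgb7 in liver. The medians of the list were 0.90 between WT organs, 2.21 between EomesTG organs, -0.12 between livers and -0.44 between spleens, beside 0.06, 0.19, 0.12 and -0.01 for all genes tested.

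Genes of the machinery that switches integrins on from inside the cell were called mainly between the EomesTG organs. Of 19 genes of activation and adaptors, all measured, 0 were called between the spleens. Between the livers 2 were called higher in EomesTG and 2 lower, against 13.7% and 6.7% of all genes. Those called higher were Dok1, an adaptor that binds beta chains, at 0.88, and Sipa1, which turns off the GTPase RAP1, at 185 against 119.7 CPM (0.63). Those called lower were Cyth1, a partner of CD18, at 46 against 70.1 CPM (-0.61), and Rap1gap2 at -0.99. WT liver had 2 called higher than WT spleen, Dok2 at 0.62 and Rap1gap2 at 1.62, and 0 lower, against 11.4% and 3.38%. EomesTG liver had 6 called higher than EomesTG spleen and 2 lower, which is near the 23.6% and 9.69% of all genes, among them Dok1 at 1.34, Dok2 at 1.05, Sipa1 at 1.03 and Cyth1 at -0.81. The medians were -0.07, 0.08, 0.13 and 0.19 between spleens, livers, WT organs and EomesTG organs, beside the same medians of all genes given above.

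Of 22 genes of signalling and cytoskeleton downstream of integrins, 19 or 20 were measured, and 0 were called between the spleens. Between the livers 2 were called higher in EomesTG, the kinases Fyn at 272 against 163 CPM (0.74) and Ptk2b at 0.72, and 1 lower, Flna, the filamin that binds beta chain tails, at 85 against 151 CPM (-0.83), where 13.7% and 6.7% of all genes were. EomesTG liver had 4 called higher than EomesTG spleen, among them Fyn at 1.36 and Ptk2b at 0.84, and 2 lower, among them Actn1 at -1.15, again near the 23.6% and 9.69% of all genes. WT liver had 1 called higher than WT spleen, Vcl at 0.82, and 2 lower, Actn1 at -0.59 and Ptk2 at -0.76, where 11.4% and 3.38% were. In the same EomesTG clones Flna was also called lower in liver, at 97 against 266 CPM (-1.46). The medians of this list were -0.05, 0.16, 0.13 and 0.27 between spleens, livers, WT organs and EomesTG organs.

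Of 16 ligands and surface partners, 11 or 12 were measured, and 0 were called between the spleens. Between the livers 2 were called higher in EomesTG, among them Cdh1, which encodes the E-cadherin bound by CD103, at 3.8 against 1.8 CPM, and 3 lower, among them Cd226, which associates with LFA-1, at 47.2 against 97.2 CPM (-1.04) and Icam2 at -0.99, against 13.7% and 6.7% of all genes. WT liver had 3 called higher than WT spleen, Icam1 at 78.4 against 38.8 CPM (1.01), Cd226 at 0.75 and Cd44 at 0.69, and 2 lower, against 11.4% and 3.38%. EomesTG liver had 1 called higher than EomesTG spleen, Cdh1 at 1.89, and 3 lower, among them Icam2 at -1.37 and Cd81 at -0.74, against 23.6% and 9.69%. The medians of this list were 0.06, -0.24, 0.09 and 0.02 between spleens, livers, WT organs and EomesTG organs.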

How the data were processed

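Reads were processed with Cell Ranger and the mm10 genome, per the submitters' processing notes, and software version 3.1.0 and format version 2 stand in the matrix headers. No source used here names the annotation behind the counts. The deposited matrices hold unnormalised UMI counts of genes in 5415 and 3327 barcodes of WT spleen and liver and 5774 and 4587 of EomesTG spleen and liver, and the deposited TCR tables hold counts of UMIs and reads per contig. The genes, lists, comparisons and naming rules were chosen with earlier results of these data known.

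Barcodes with at least 500 UMIs, 300 genes and under 10% mitochondrial UMIs were kept, and 29 cells led by Jchain, H2-Aa and Lyz2 were left out. No doublet caller was used; no barcode had more than 2 productive TRB chains, and the 4.55 to 7.57% of cells with a TRB chain that had 2 were kept, with an alternative without them. For clustering, counts were scaled to 10000 per cell and log-transformed. Clusters came from 2000 variable genes (without integrin genes, Eomes, antigen receptor, mitochondrial, ribosomal protein and sex-linked genes), 30 principal components, 15 neighbours and Leiden resolution 1.0, without integration. They were named from fixed marker lists by judgement, clusters 7, 8, 13 and 16 keep their number, and classes of other studies may be drawn differently. Cells were also gated by a Pdcd1 UMI. A gene of the list of ligands and partners, and the gates that need it, are not reported here. Clones joined cells with identical productive TRA and TRB CDR3 nucleotides.

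UMIs were summed per group. Genes needed 50 UMIs over both sides. Shares of cells were taken after thinning to 2000 UMIs, which left out 254, 373, 194 and 586 shallower cells. The interval code was tested on simulated counts. Named were the 6 members, Eomes, up to 4 called genes per list and comparison with the interval bound farthest from equality, and the 3 genes nearest in pattern to each member; genes naming a cluster were chosen after its values were seen. Alternatives covered scaling, cell and clone weights, filters, thinning, fold, cluster resolution and clone definition. The work used scanpy 1.11.5, leidenalg 0.10.2 and igraph 0.11.9 for clusters, scipy 1.17.1 for intervals, and matplotlib 3.10.9 under Python 3.11.15.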

Additional observations from a re-analysis of the deposited data

How the results depend on the processing

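No paired analysis was possible because each genotype and organ is 1 library and no result comes from a test over replicates. With 1 library per group no replicate could be left out. Values given as log2 ratios of single genes moved beyond their interval in 235 recomputations and stayed within it in 813, and a called ratio changed sign once: Itga4 between EomesTG and WT liver was -0.060 without exhausted-like cells. Counts of called members stayed within 1.5 times of the count given in 306 recomputations and moved past it in 42, as follows.

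Between EomesTG and WT spleen, 0 were lower after thinning and at a fold of 2. Between EomesTG and WT liver, 0 were higher with scaling that leaves out ribosomal protein, mitochondrial and receptor genes, with each clone counted once, without exhausted-like cells, without immediate early-like cells and at a fold of 2. In the same comparison 2 were lower with that scaling, with median-of-ratios scaling, with every cell counted equally and after thinning, 3 without immediate early-like cells, and 0 with each clone counted once or without exhausted-like cells. Between liver and spleen of WT, 5 were higher without immediate early-like cells and 1 at a fold of 2. Between liver and spleen of EomesTG, 0 were lower with each clone counted once or without exhausted-like cells, and 2 were higher at a fold of 2.

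In the same WT clones, 1 was higher and 1 lower in liver with each clone counted once, and 1 was lower without the largest clone. In the same EomesTG clones, 1 was higher with every cell or every clone counted equally, and 1 was lower with each clone counted once. In clones of EomesTG liver, scaling without ribosomal protein, mitochondrial and receptor genes gave 1 higher and 2 lower, and outside the naive-like class that scaling and median-of-ratios scaling each gave 1 higher and 2 lower. With the former, 1 was higher in NK-receptor-like cells of liver than spleen in WT and 1 in EomesTG, and 2 were lower in cycling-like cells of EomesTG liver than spleen. At the coarser cluster resolution, 1 was higher in effector-like cells of WT liver than spleen, 1 was lower in EomesTG in immediate early-like liver cells, 0 were lower in EomesTG in interferon-responding spleen cells, and 1 was lower in liver in naive-like cells of WT. In memory-like cells at that resolution, 1 was higher and 1 lower in EomesTG than WT spleen, 1 was lower in EomesTG than WT liver, and 1 was lower in EomesTG liver than spleen. The cause was not tested. The leave-out of exhausted-like and immediate early-like cells and of the largest clones, and median-of-ratios scaling for clones and classes, were chosen after seeing the data. Genes under 50 UMIs over both sides, such as Itgax in small classes, could not be called at this depth.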

Other observations

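The 29 cells of other types that were left out, led by plasma cell and myeloid genes, had Itgax at 44.2 CPM (22.1 to 79, from 11 UMIs), above every T cell library. Itgb7 was at 245 CPM, Itga4 at 157 and Itgb2 at 169 in them.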
